A study of Homo sapiens with 16 samples.

Results

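SW480 cells transfected with an siRNA against TAZ, the product of WWTR1, were compared with SW480 cells given a control siRNA. The comparison rests on 8 of the 16 arrays of the series, the 4 siTAZ arrays and the 4 siGFP control arrays, each lettered A to D as biological replicates. SW480 is a human colorectal cancer line in which a truncated APC leaves beta-catenin active. The control and siTAZ cells stably carried an empty vector. The other 8 arrays were used for comparison: 4 of sibcat cells, with the empty vector and an siRNA against beta-catenin, and 4 of APC cells, given the control siRNA and stably transfected with a vector for wild-type APC. Cells of all groups grew in serum-containing RPMI medium supplemented with insulin, hydrocortisone and thioglycerol, and all were transfected with RNAi MAX. TAZ was targeted in 1 siRNA condition, so effects of the siRNA on other transcripts cannot be told apart from loss of TAZ. The labels do not state whether replicates came from separate transfections or whether the APC cells are 1 clone, so that p-values may reflect technical spread alone.

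TAZ and its paralogue YAP are transcriptional co-activators with no DNA-binding domain, which reach DNA mainly through the TEAD factors. The kinases of the Hippo pathway, MST and LATS with the adaptors SAV1 and MOB1, phosphorylate both proteins and keep them out of the nucleus. The beta-catenin destruction complex, of which APC is a part, has also been linked to TAZ turnover, and the series asks what TAZ contributes to the Wnt response.

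Each of 19775 genes was measured by its brightest probe set on Affymetrix U133 Plus 2.0 arrays, as a log2 level made with RMA (robust multi-array average), so a difference of 1.00 is a 2-fold change. A gene was called when its limma p-value, adjusted over all genes by Benjamini-Hochberg, was under 0.05. Array medians lay between 5.06 and 5.12, and 5.10 is used below as the level under which a signal may be largely background. The ACTB 3' probe set exceeded the 5' one, a measure of RNA integrity, by 2.05 ± 0.159 (log2, SD, n = 4) in control and 2.56 ± 0.386 in siTAZ arrays (exact two-sided permutation p = 0.0571). Deviations from the group means correlated at 0.03 to 0.40 between arrays of different groups when both were A or B, or both C or D, and at -0.47 to -0.02 otherwise. The epithelial markers of the SW480 origin were bright, with KRT18 at 14.20 and a log2 summed level of colon epithelium markers of 15.25 to 15.30 in control and 15.12 to 15.17 in siTAZ arrays, although CDH17 was near background at 3.72. Over all genes 17.0% were called higher and 13.1% lower in siTAZ cells. Of 14 fibroblast and endothelium markers 0 were called, but 9 of them were below 5.10 in control cells. Of 9 leukocyte markers, 6 of them below 5.10 in control cells, CD14 rose, by 0.59 to 5.20 (adjusted p = 1.34e-05). PTPRC, the pan-leukocyte marker, stood at 3.15. The log2 summed level of 12 nervous system and liver markers was 11.35 to 11.58 in control and 11.80 to 12.17 in siTAZ arrays; 3 rose (SYT1, SNAP25 and SERPINA1), MBP fell, and ALB stood at 2.82. The part of these differences in the results below was not tested, except where a value with the ACTB measure as a covariate is given.

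WWTR1, the targeted transcript, stood at 10.26, 10.13, 10.33 and 10.39 on the control arrays. On the siTAZ arrays it read 6.79, 7.0, 6.77 and 7.06. All 4 siTAZ arrays lay far below all controls. WWTR1 fell by 3.37 (SE 0.0729, adjusted p = 8.87e-15), to 9.66% of control, and both other WWTR1 probe sets fell as well. An exact permutation test over the 8 arrays gave its smallest possible value, p = 0.0286. The labels of the 8 arrays were matched by the level of the target. WWTR1 stood at 10.93 to 11.05 in sibcat and 10.90 to 11.06 in APC cells, above control by 0.70 and 0.73.

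YAP1, the paralogue, averaged 11.36 ± 0.148 in control and 11.19 ± 0.107 in siTAZ cells, a difference of -0.17 that was not called (adjusted p = 0.157, 95% interval -0.34 to 0.01). Of its other 2 probe sets 1 was lower and called. Without control array B the YAP1 difference was -0.24 and passed the threshold. CTNNB1, which encodes beta-catenin, averaged 13.12 and 13.33 (adjusted p = 0.196), and APC itself 8.22 and 8.38 (adjusted p = 0.455). CTNNB1 had another probe set that was higher and called, and with the ACTB measure as a covariate its difference was 0.40 and passed the threshold. In sibcat cells CTNNB1 was lower than control by 2.96, in a comparison that uses the same control arrays.

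Across the array, 3357 genes (17.0%) were higher and 2594 (13.1%) lower in siTAZ than in control cells. Most of these differences were small, with a median of 0.37 among the higher and -0.36 among the lower genes. At least 2-fold differences were found for 170 genes (0.860%) that rose and 169 (0.855%) that fell. The genes on either side differed in control level. Those that rose at least 2-fold had a median control level of 6.01, and 48 of 170 stood below 5.10 in control cells. Those that fell had a median of 9.32 and 4 of 169 below 5.10. Part of this follows from the choice, since a gene that rose was lower in control. In siTAZ cells the medians were 7.43 and 7.73, with 14 of 170 and 13 of 169 below 5.10. At least 4-fold differences were found for 9 genes that rose and 17 that fell. Where other probe sets of the gene existed, at least 1 of them was called the same way for 72 of 100 of the 2-fold higher and 91 of 113 of the 2-fold lower genes. At least 1 was called the opposite way for 0 and 6 of these. Over all genes with other probe sets, called or not, these shares were 25.1% for the same way and 5.48% for the opposite way.

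**Figure D1:**
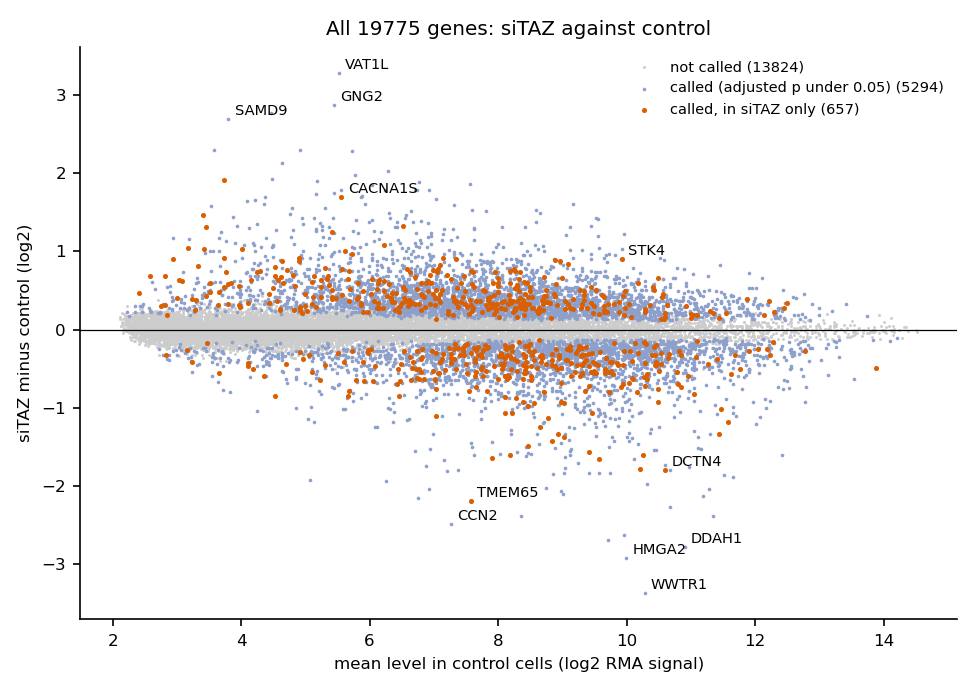
Difference between siTAZ and control cells (log2, y axis) for 19775 genes against the mean control level (log2 RMA signal, x axis); each point is a gene, coloured by whether it was called and whether it was called in siTAZ cells only. The largest falls, WWTR1, HMGA2 and DDAH1, lie at control levels near or above 10, while VAT1L, GNG2 and SAMD9, among the largest rises, lie below 6.

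CCN2 (CTGF) and ANKRD1 are classical YAP/TAZ target genes with TEAD motifs close to the start of transcription. Their upstream windows are shown because both fell after TAZ knockdown and hold the TEAD letters. Each is the 250 bases before the gene's first listed start in RefSeq (GRCh38.p14), for CCN2 chr6:131951373-131951622 (minus strand) and for ANKRD1 chr10:90921088-90921337 (minus strand), written 5' to 3' on the gene's strand, with GGAATG, or CATTCC on the other strand, in capitals:
CCN2: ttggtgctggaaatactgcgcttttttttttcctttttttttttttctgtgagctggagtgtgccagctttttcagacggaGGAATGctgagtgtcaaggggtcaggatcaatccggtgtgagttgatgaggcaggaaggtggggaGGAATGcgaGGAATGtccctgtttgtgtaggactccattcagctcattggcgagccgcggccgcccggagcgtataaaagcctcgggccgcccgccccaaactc
ANKRD1: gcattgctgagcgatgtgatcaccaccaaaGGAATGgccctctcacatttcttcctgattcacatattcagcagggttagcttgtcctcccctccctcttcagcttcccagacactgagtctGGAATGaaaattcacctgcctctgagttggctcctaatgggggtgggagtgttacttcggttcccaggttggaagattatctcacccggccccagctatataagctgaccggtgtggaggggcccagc
The CCN2 window held 3 TEAD matches and the ANKRD1 window 2. Over all 27305 RefSeq promoters in the table, 11.9% held at least 1 match in a window of this length. Of the YAP/TAZ target genes analysed, 20 had a window and 7 of these held a match (ANKRD1, CCN2, FOXF2, PTPN14, TGFB2, THBS1 and WTIP). It was 2 of 11 among the members that fell, 2 of 3 among those that rose and 3 of 6 among those not called. Of the analysed genes with a window 10.3% held a match, of those called lower in siTAZ cells 9.14%, and of those called higher 9.84%. A match describes the letters of the window and is no evidence of binding, and distal enhancers lie outside it.

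Of 30 listed YAP/TAZ target genes 27 were analysed here. In siTAZ cells 14 of the 27 fell and 4 rose, and 9 were not called, beside 13.1% lower and 17.0% higher over all genes. The list's median difference was -0.35, with all genes at 0.02. The siTAZ arrays lay entirely below the control arrays for 14 members, beside 12.7% of all genes. The median was -0.16 when all probe sets of each gene were averaged and -0.16 without probe sets that can cross-hybridise. Here and below, whether a probe set can cross-hybridise was taken from the ending of its name alone (_x_at, _s_at or _a_at). The probes themselves were not aligned.

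CCN2, a secreted matricellular protein, read 7.43, 7.01, 7.37 and 7.23 on the control arrays and 4.71, 4.88, 4.72 and 4.77 on the siTAZ arrays. The groups were far apart, and the siTAZ level lay below 5.10, so the size of the fall is uncertain. CCN2 fell by 2.49 (SE 0.132, adjusted p = 4.34e-10). CCN1 (CYR61), its close relative, read 10.78, 10.57, 10.83 and 10.78 in control and 9.77, 9.75, 9.78 and 9.78 in siTAZ cells. It fell by 0.97 (SE 0.0598, adjusted p = 2.70e-09), to 51.1% of control, with very little spread among the siTAZ arrays. CRIM1, a transmembrane protein that binds bone morphogenetic proteins, fell from 9.27 ± 0.0222 to 8.22 ± 0.165 (difference -1.05, adjusted p = 3.95e-09).

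Several of the other members that fell encode surface or secreted proteins. NT5E, the ecto-nucleotidase CD73, read 9.94, 9.89, 10.06 and 10.02 in control and 9.02, 9.05, 9.01 and 9.12 in siTAZ cells, and fell by 0.93. F3, tissue factor, fell by 0.87 from 8.62 ± 0.215 to 7.76 ± 0.132. IGFBP3, which binds insulin-like growth factors, fell by 0.73 from 12.36 ± 0.0737. AXL, a receptor tyrosine kinase, fell by 0.55, and the peptide hormone gene EDN1 fell by 0.44. The arrays of the groups did not overlap for any of these genes.

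ANKRD1, an ankyrin-repeat cofactor, read 9.44, 9.42, 9.98 and 10.05 in control and 8.82, 8.52, 9.11 and 9.07 in siTAZ cells. The groups did not overlap, but within each of them A and B were below C and D. ANKRD1 fell by 0.84 (SE 0.196, adjusted p = 0.00301). With the ACTB measure as a covariate its difference was -0.41 and was no longer called. GADD45B, a stress-response gene, fell by 0.81, but the difference was -0.19 and not called on the brightest probe set that cannot cross-hybridise. MYOF, a membrane-repair protein, was lower by 0.44 on its brightest probe set and by 0.60 on another, and the difference was 0.05 on the one that cannot cross-hybridise. DLC1 fell by 0.41, and AMOTL2 and AJUBA, which act on LATS and YAP, fell by 0.35 each; AJUBA was not called with the ACTB covariate.

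The members that rose were TGFB2, a TGF-beta ligand, by 0.60 from 5.89 ± 0.0846; THBS1, the matrix protein thrombospondin-1, by 0.46; TEAD1, by 0.32; and LATS2, a Hippo kinase, by 0.20. Several of these calls depended on the probe sets or arrays used. Averaged over all probe sets, TEAD1 differed by -0.16, and LATS2 and TGFB2 were not called, and THBS1 lost its call without control array B (0.33), without siTAZ array A (0.45) and without siTAZ array D (0.44). Not called were BIRC5, FJX1 and ASAP1, at 0.11 to 0.12, ARHGEF17 and AMOTL1, at 0.04 and 0.01, and FOXF2, PTPN14, WTIP and RBMS3, at -0.05 to -0.16.

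**Figure D2:**
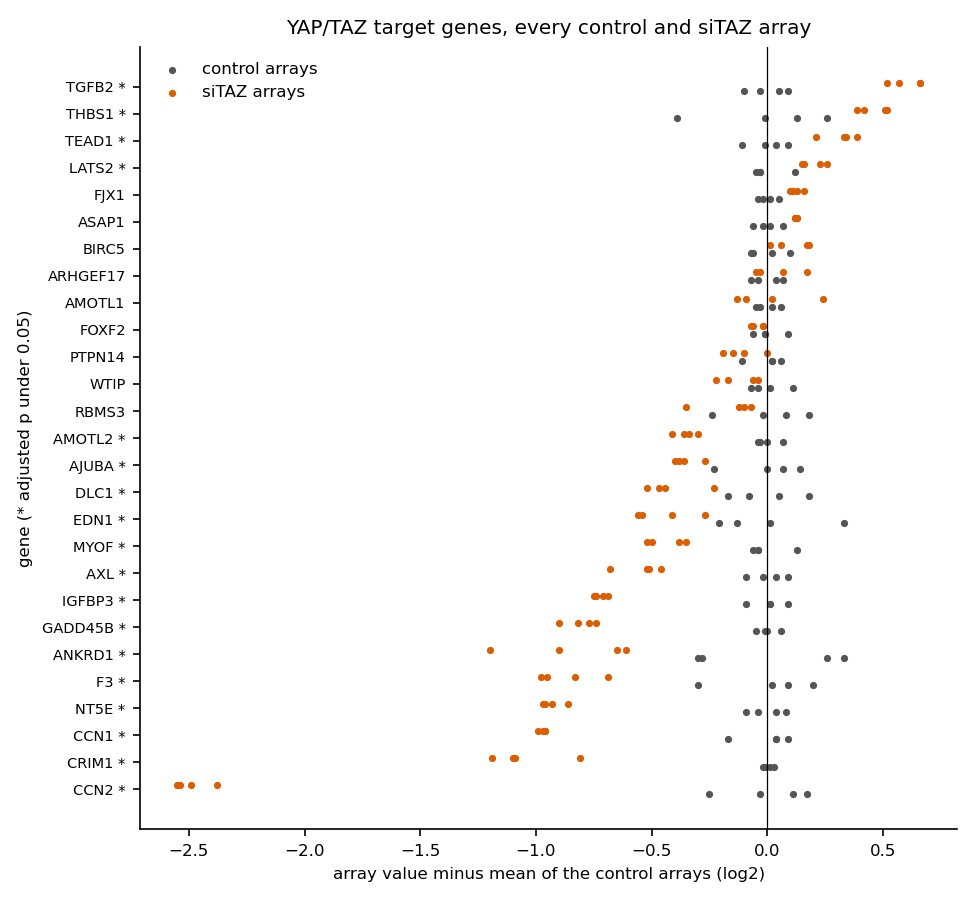
Value on every control and siTAZ array minus the mean of the control arrays (log2, x axis) for the 27 YAP/TAZ target genes analysed (y axis, called genes starred); each point is an array. The siTAZ points of 14 genes lie wholly to the left of the control points, with CCN2 farthest at -2.49, and the points of TGFB2, THBS1, TEAD1 and LATS2 lie to the right.

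The same list looked different in the other groups, which are set beside siTAZ here and share its controls. The median difference from control was 0.02 in sibcat and -0.46 in APC cells. Set directly against sibcat cells, siTAZ cells were higher for 5 and lower for 12 of the 27 members (18.9% and 17.8% of all genes), and against APC cells higher for 15 and lower for 6 (22.4% and 19.9%). NT5E was lower in siTAZ than in sibcat cells by 2.42 (adjusted p = 4.64e-15), F3 by 1.77 (adjusted p = 1.05e-09), IGFBP3 by 1.61 (adjusted p = 1.71e-13) and AXL by 1.35 (adjusted p = 4.67e-12). These 4 genes were above control in sibcat cells. For ANKRD1 no difference was detectable (-0.01, SE 0.196, adjusted p = 0.985), and CCN2 differed by -0.31 (adjusted p = 0.0771). Against APC cells, siTAZ cells were higher for CCN2 by 1.00, CCN1 by 1.17, ANKRD1 by 1.48 and IGFBP3 by 1.86. CCN2 averaged 4.77 in siTAZ, 5.08 in sibcat and 3.77 in APC cells. All of these lie below 5.10, so the sizes of the CCN2 differences between these groups are uncertain. Of the 27 members 0 met the definition, given below, of a gene changed in siTAZ cells only, beside 1.80% of all genes higher and 1.53% lower, so the count is near the background.

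Of 28 Hippo pathway and TEAD components 8 rose (28.6%, beside 17.0% of all genes) and 5 fell (17.9%, beside 13.1%), with a median of 0.01. With all probe sets of a gene averaged 5 rose and 6 fell, and on the C and D arrays alone 6 rose and 8 fell; without control array B it was 7 and 7. STK4 (MST1), the upstream kinase, read 9.98, 9.97, 9.84 and 9.91 in control and 10.89, 10.82, 10.78 and 10.83 in siTAZ cells. It rose by 0.90 (SE 0.0529, adjusted p = 1.47e-09), and 3 of its 6 other probe sets rose too. MOB1A, the adaptor that activates LATS, read 10.48, 10.45, 10.46 and 10.58 against 9.65, 9.62, 9.52 and 9.48 and fell by 0.93 (SE 0.0542, adjusted p = 1.51e-09). Both moved on all arrays, in opposite directions. AMOT, an angiomotin that binds YAP, rose by 0.58 from a level near background, 3.79 ± 0.0698, and was not called on the C and D arrays alone. Outside the rule for named genes, and chosen after their values were seen, VGLL4, a TEAD cofactor that competes with YAP and TAZ, rose by 0.55, and STK3 (MST2) by 0.37. Of the TEAD factors TEAD2, TEAD3 and TEAD4 were not called, at -0.08, 0.13 and -0.09. In sibcat cells STK4 and MOB1A differed from control by -0.07 and 0.13, and in APC cells by 0.01 and 0.02.

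Wnt target genes carry T-cell factor (TCF/LEF) motifs, to which beta-catenin is recruited. The windows of SP5, a transcription factor gene that responds directly to Wnt, and of DKK1, a secreted Wnt antagonist, are shown because both hold such letters and differ in their calls. They are the 250 bases before the first listed start (RefSeq, GRCh38.p14), for SP5 chr2:170715087-170715336 (plus strand) and for DKK1 chr10:52314031-52314280 (plus strand), with CTTTGA, or TCAAAG on the other strand, in capitals:
SP5: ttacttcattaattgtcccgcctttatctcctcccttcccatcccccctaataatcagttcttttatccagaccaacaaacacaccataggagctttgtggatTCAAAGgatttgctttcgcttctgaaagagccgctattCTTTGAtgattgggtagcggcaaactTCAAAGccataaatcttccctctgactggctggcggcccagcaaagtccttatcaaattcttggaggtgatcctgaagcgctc
DKK1: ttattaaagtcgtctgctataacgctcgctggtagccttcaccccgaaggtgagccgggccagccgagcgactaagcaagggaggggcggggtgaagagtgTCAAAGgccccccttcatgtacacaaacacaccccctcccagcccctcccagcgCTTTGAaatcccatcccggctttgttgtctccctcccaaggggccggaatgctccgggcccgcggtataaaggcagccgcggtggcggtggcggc
SP5 held 3 matches and DKK1 2. The DKK1 window also holds GGAATG, left in lower case, which does not overlap them. Of all these promoters 11.4%, and of the analysed genes 9.40%, held a TCF/LEF match, and 4 of the 18 Wnt target genes with a window did (DKK1, FGF18, MMP7 and SP5). Here DKK1 fell and SP5 was not called.

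Of 33 listed Wnt/beta-catenin target genes 30 were analysed; TCF7, EPHB2 and TDGF1 were not analysed here. In siTAZ cells 13 rose, 4 fell and 13 were not called, and the median difference was 0.11 with all genes at 0.02. The members that rose were 43.3% of the list, beside 17.0% of all genes, and those that fell 13.3%, beside 13.1%. Leaving out each array in turn gave 11 to 13 members that rose. On the A and B arrays alone 9 rose and 3 fell, and on the C and D arrays alone 9 rose and 6 fell, both from fewer samples.

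The 13 members not called included several feedback inhibitors of the pathway. AXIN2, a scaffold of the destruction complex, read 11.71, 11.55, 11.64 and 11.53 on control and 11.87, 11.68, 11.63 and 11.64 on siTAZ arrays. The groups overlapped, and the difference of 0.10 had a 95% interval of -0.04 to 0.24 (exact permutation p = 0.257). NKD1, which binds Dishevelled, differed by -0.14 (interval -0.29 to 0.01), and ZNRF3, a ubiquitin ligase that removes Frizzled receptors, by -0.10 (interval -0.25 to 0.05). NOTUM, an enzyme that inactivates Wnt ligands, differed by 0.12 (interval -0.11 to 0.35). SP5 differed by 0.04 (interval -0.07 to 0.15). For FGF20, a growth factor gene, it was 0.07 (interval -0.10 to 0.23), and for TNFRSF19, a receptor gene, -0.14 (interval -0.35 to 0.07). The other 6 members not called were DKK4 at -0.28 (interval -0.54 to -0.03), CD44 at -0.08 (interval -0.18 to 0.02), and LGR5, BMP4, TCF4 and EDN3. LGR5, the stem cell receptor, was near background at 3.86 and differed by -0.03 (interval -0.31 to 0.24). The lowest bound over the 13 was that of DKK4.

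The same genes were lower in sibcat cells, and the direct comparison tests that difference. AXIN2 was higher in siTAZ than in sibcat cells by 1.76 (SE 0.0663, adjusted p = 1.88e-12) and higher than in APC cells by 1.46 (adjusted p = 1.14e-11). NKD1 was higher than in sibcat cells by 2.03, SP5 by 2.32, TNFRSF19 by 2.50 and FGF20 by 3.17. Over the list, 24 members were higher and 3 lower in siTAZ than in sibcat cells (18.9% and 17.8% of all genes). The median of that comparison was 1.12. Against APC cells 22 members were higher and 5 lower (22.4% and 19.9% of all genes), with a median of 0.68. Against control, the list's median was -1.18 in sibcat cells, with 23 members lower, and -0.49 in APC cells, with 19 lower (17.3% and 17.1% of all genes).

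Among the members that rose, JAG1, a Notch ligand, read 9.92, 9.79, 10.06 and 10.08 in control and 11.18, 11, 11.27 and 11.27 in siTAZ cells. All siTAZ arrays were above all controls, and JAG1 rose by 1.22 (SE 0.0925, adjusted p = 3.09e-08); it was below control by 1.39 in sibcat cells. PROX1, a homeobox factor, rose by 0.90 from 8.20 ± 0.0900 to 9.11 ± 0.146 (adjusted p = 1.87e-06), and all 3 other probe sets rose. CCND1, cyclin D1, lay between 11.82 and 12.10 on the control and between 12.35 and 12.43 on the siTAZ arrays, and rose by 0.40 (adjusted p = 7.92e-05). The other CCND1 probe set, at 11.28 in control cells, differed by 0.14 and was not called. The protease gene PLAU (urokinase) rose by 0.63 and the receptor tyrosine kinase gene EPHB3 by 0.51. The other PLAU probe set differed by 0.44 and was not called, while the other EPHB3 probe set rose by 0.29. On the brightest probe sets smaller rises were measured for LEF1, the TCF family member (0.35), APCDD1, a Wnt inhibitor (0.31), and SOX4 (0.26). On dimmer called probe sets APCDD1 rose by 1.57 and SOX4 by 0.53, 0.69 and 0.68. The remaining SOX4 probe sets and the other LEF1 probe sets were not called. BAMBI, KREMEN1, RNF43 and ASCL2 rose by 0.22, 0.19, 0.18 and 0.15; of these, ASCL2 differed by -0.01 over all its probe sets and both ASCL2 and RNF43 lost the call when control array C, control array D or another single array was left out. MMP7, a matrix metalloproteinase, rose by 0.42 from 5.24 ± 0.163, close to background, and was not called on the C and D arrays alone.

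The 4 members that fell were FGF18, a growth factor, by 0.63 (7.61, 7.71, 7.60 and 7.73 against 7.05, 7.10, 6.92 and 7.08), CDC25A, a cell-cycle phosphatase, by 0.44, ETS2, a transcription factor, by 0.36, and DKK1 by 0.34. The arrays of the groups did not overlap for any of them. DKK1 read 10.28, 10.12, 10.31 and 10.43 in control and 9.97, 9.90, 9.95 and 9.97 in siTAZ cells; it was not called with the ACTB covariate (-0.24). FGF18 and DKK1 were still higher in siTAZ than in sibcat cells, by 0.65 and 1.12, while CDC25A was lower than there by 0.36 (adjusted p = 0.000214). Of 28 Wnt pathway components 9 rose (32.1%, beside 17.0% of all genes) and 5 fell (17.9%, beside 13.1%), with a median of 0.11; 3 fell with the ACTB covariate, on the A and B arrays alone, and when control array C or D, or siTAZ array A or D, was left out. TLE3, a co-repressor of TCF factors, rose by 0.61, TCF7L1 by 0.54, the beta-catenin cofactor BCL9L by 0.45 and the ligand WNT5A by 0.44. BCL9L did not hold its call with the ACTB covariate (0.08), and TCF7L1 also lost it there (0.33).

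**Figure D3:**
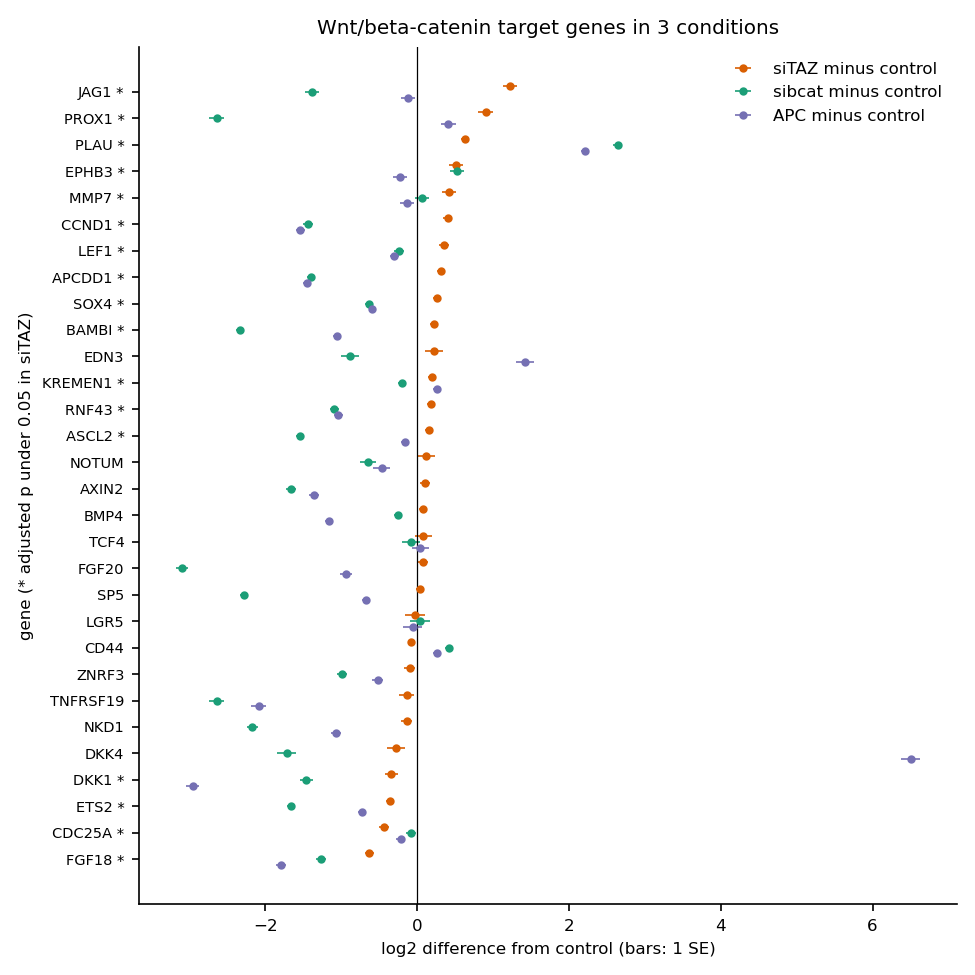
Difference from control (log2, x axis; bars 1 SE, n = 4 per group) of the 30 Wnt/beta-catenin target genes analysed in siTAZ, sibcat and APC cells, which share the control arrays; genes called in siTAZ cells are starred. The siTAZ points run from -0.63 (FGF18) to 1.22 (JAG1), while the sibcat points of AXIN2, NKD1, SP5, TNFRSF19 and FGF20 lie far to their left.

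Genes were taken as changed in siTAZ cells only when siTAZ cells differed in the same direction from control, sibcat and APC cells, and neither sibcat nor APC cells were called against control. This held for 355 genes (1.80%) that were higher and 302 (1.53%) that were lower. The values below are those that chose the genes and are given as a description. The median difference was 0.39 among the higher and -0.44 among the lower genes. Only 10 of the higher genes reached 2-fold, 6 of them with control levels below 5.10, while 21 of the lower genes did, with 0 below 5.10. Where a gene had other probe sets, another was called the same way against control for 96 of 223 higher genes and 110 of 199 lower genes. These shares, 43% and 55.3%, lie near those of all genes called higher and lower, 41.5% and 52.7%. Another probe set was called the opposite way for 13 higher and 9 lower genes.

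TMEM65, a mitochondrial membrane protein, read 7.48, 7.30, 7.83 and 7.69 in control, 5.31, 4.82, 5.78 and 5.62 in siTAZ, 7.82 to 8.01 in sibcat and 7.83 to 8.18 in APC cells. Only the siTAZ arrays were low, with a difference of -2.19 (SE 0.166) from control. DCTN4, a subunit of the dynactin motor complex, read 10.50, 10.52, 10.65 and 10.72 in control and 8.82, 8.73, 8.84 and 8.79 in siTAZ cells, a difference of -1.80. RANBP9, a scaffold protein, differed by -1.78. For DCTN4 and RANBP9 the brightest probe set can cross-hybridise by its name. On the probe sets without such a name, which were dim, the differences were -0.30 and -0.08 and were not called. Their control levels there were 3.81 and 3.68, near background. Other probe sets that can cross-hybridise were called lower, at -1.36 for DCTN4 and at -2.08 and -1.91 for RANBP9. EMC3, of the endoplasmic reticulum membrane complex, read 9.50, 9.59, 9.53 and 9.65 against 7.90, 7.98, 8.05 and 7.75, a difference of -1.65.

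SGMS2, a sphingomyelin synthase, and IPO8, a nuclear import receptor, each differed by -1.61, with all other probe sets of both called the same way. SLC25A30, a mitochondrial carrier, differed by -1.64 on 1 probe set of 4. KCTD9 differed by -1.56, DPY19L4 by -1.43 and TMEM184C by -1.38. FAM117B differed by -1.49, but 1 of its 3 other probe sets was higher. RBL2, the pocket protein p130 that represses E2F target genes in resting cells, read 8.91, 8.44, 9.11 and 9.25 in control and 7.53, 7.48, 7.67 and 7.66 in siTAZ cells, a difference of -1.34. Its control array B was the lowest control and still above every siTAZ array.

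The larger increases were led by genes of low level. PRR9 rose by 1.91 from 3.74 ± 0.281, a level near background, to 5.64 ± 0.229. CACNA1S, a subunit of the skeletal muscle calcium channel, read 5.65, 5.62, 5.38 and 5.57 in control and 7.42, 7.03, 7.06 and 7.47 in siTAZ cells, a difference of 1.69. UAP1L1 differed by 1.32 and HPSE, heparanase, by 1.25. HEY1, a Notch target gene, read 5.49, 5.79, 5.88 and 5.71 against 6.73, 6.42, 6.76 and 6.84, a difference of 0.97. ENTPD1 (CD39), which hydrolyses extracellular ATP, differed by 1.00, and all 3 of its other probe sets were higher. FBXW7, the substrate receptor of a ubiquitin ligase, differed by 0.90 from 7.34 ± 0.284 to 8.24 ± 0.0739, and the tumour suppressor folliculin (FLCN) by 1.08 from 6.22 ± 0.565. The FLCN controls were uneven, with array B at 5.39 and the others at 6.42 to 6.65. The translational repressor GIGYF1 and the cytokine TSLP each differed by 0.92, and the folate receptor gene FOLR1 by 0.89.

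Of the 525 listed genes analysed, 8 were in this class as higher and 6 as lower, beside 1.80% and 1.53% of all genes. They were STK4, VGLL4 and AMOT (higher) and MOB1A (lower) of the Hippo list, MMP7 of the Wnt targets, NDUFB5, COX5A and NDUFA9 (lower) of mitochondrial respiration, AMD1 and MAT2A (lower) of methionine metabolism, and BAX, CDC34, CXCL1 and FOSB (higher). NDUFB5, a subunit of respiratory complex I, read 11.50, 11.43, 11.41 and 11.54 in control and 10.40, 10.50, 10.45 and 10.49 in siTAZ cells, a difference of -1.01. It stood at 11.47 ± 0.0606 in control and between 11.45 and 11.55 on the sibcat and APC arrays.

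**Figure D4:**
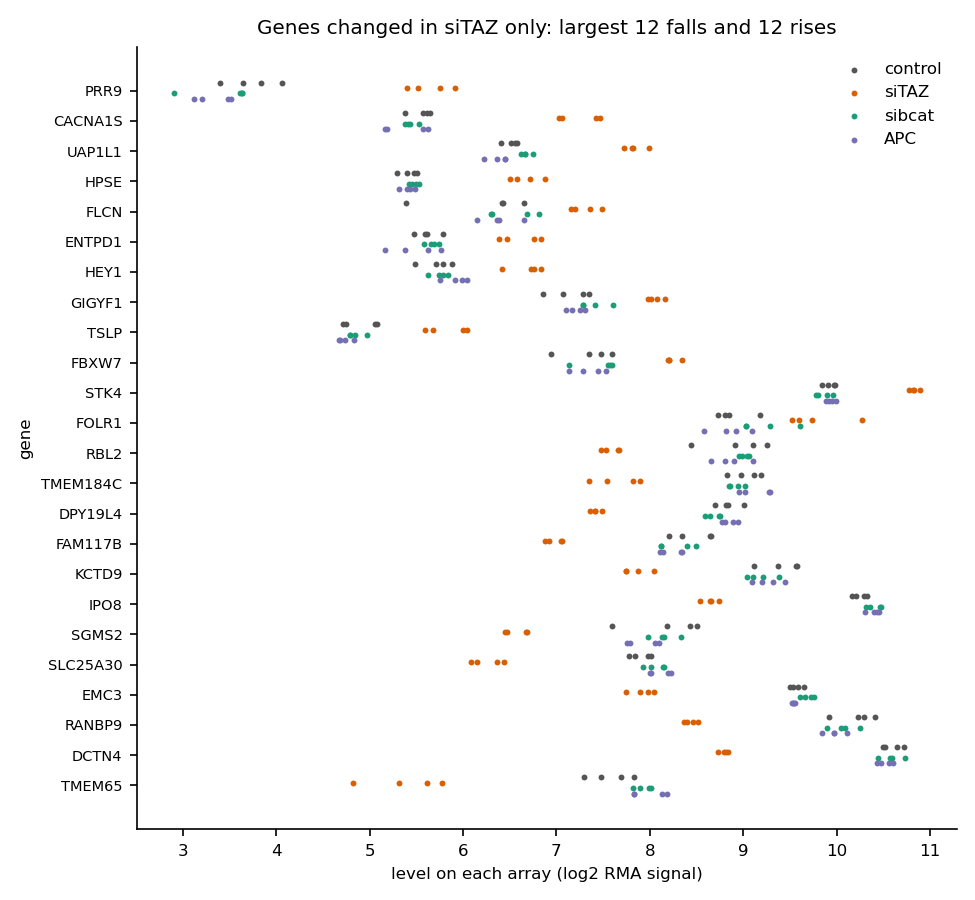
Level on each of the 16 arrays (log2 RMA signal, x axis) of the 12 genes with the largest falls and the 12 with the largest rises among those changed in siTAZ cells only (y axis); each point is an array, coloured by group. The siTAZ points stand apart from the control points for every gene shown, which was a condition of the choice. DCTN4, for example, averaged 8.80 in siTAZ and 10.60 in control cells. For FOLR1 the sibcat array B, at 9.61, lies among the siTAZ points.

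The largest decreases of all, after WWTR1, were in genes of high level. HMGA2, an oncofetal chromatin protein repressed by let-7 microRNAs, read 9.99, 9.93, 10.04 and 9.99 in control and 7.05, 7.13, 7.06 and 7.02 in siTAZ cells. It fell by 2.92 (SE 0.0475, adjusted p = 4.91e-16), with groups far apart. In sibcat cells it was above control by 1.44, and in APC cells the difference was 0.04, so siTAZ cells lay below sibcat cells by 4.36 and below APC cells by 2.96. The HMGA2 probe set used can cross-hybridise by its name. Of the gene's 8 other probe sets, all dimmer, 2 were also lower. These differed by -0.57 from a control level of 5.77 and by -0.29 from 4.03. Of the 15 members of the oncofetal and let-7 list HMGA2 alone fell, 4 rose (26.7%, beside 17.0% of all genes) and 10 were not called. Those that rose included ARID3A by 1.18 and TRIM71 by 1.07, the latter from 4.50 ± 0.187.

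DDAH1, which degrades asymmetric dimethylarginine, read 10.92, 10.83, 10.88 and 10.98 in control and 8.22, 8.05, 8.14 and 8.08 in siTAZ cells and fell by 2.78. MAT2B, the regulatory subunit of the enzyme that makes S-adenosylmethionine, fell by 2.39 from 11.35 ± 0.0888 to 8.96 ± 0.0716. Both stood in a methionine and methylarginine list in which 8 of 19 members fell (42.1%, beside 13.1% of all genes) and 3 rose (median -0.17), with 5 falling on the A and B arrays alone; AMD1, of polyamine synthesis, fell by 0.63, and CTH rose by 0.52. MPC2, part of the carrier that brings pyruvate into mitochondria, read 10.00, 9.91, 9.96 and 9.99 against 7.31, 7.21, 7.44 and 7.36 and fell by 2.63. Its level in sibcat and APC cells lay 0.19 and 0.04 above control. Of 23 mitochondrial respiration and pyruvate carrier genes 11 fell (47.8%, beside 13.1% of all genes) and 1 rose (4.35%, beside 17.0%; median -0.12), with DLAT, of the pyruvate dehydrogenase complex, lower by 0.65 and COX5A by 0.32.

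TSPAN6, a tetraspanin, fell by 2.69 from 9.71 ± 0.0834, and CIAO2A, of cytosolic iron-sulphur cluster assembly, by 2.13 from 11.19 ± 0.0866. SLC7A5, the amino acid transporter LAT1, read 10.71, 10.68, 10.70 and 10.63 in control and 8.41, 8.38, 8.46 and 8.39 in siTAZ cells and fell by 2.27. In its list of unfolded protein and amino acid stress genes 9 of 22 members fell (40.9%, beside 13.1% of all genes). Another 4 rose (18.2%, beside 17.0%). PSAT1 fell by 0.54, while SLC7A11, the cystine transporter, rose by 0.58. ASNS fell by 0.66 but differed by -0.15, not called, on the probe set that cannot cross-hybridise. That probe set was near background, at 2.69 in control and 2.54 in siTAZ cells. The histone gene H2BC4, which has near-identical copies, fell by 2.15 to 4.61 ± 0.249. On all 4 siTAZ arrays TSPAN6, CIAO2A, SLC7A5 and H2BC4 lay below every control array, which was a condition of their choice.

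More genes of DNA replication and mitosis fell than rose, beside 13.1% lower and 17.0% higher over all genes. Of 31 DNA replication and E2F genes 17 fell (54.8%) and 3 rose (median -0.24). Of 29 mitosis genes 14 fell (48.3%) and 1 rose (median -0.18); on the A and B arrays alone 8 fell. E2F8, an atypical E2F that represses transcription, read 8.44, 7.92, 8.50 and 8.53 in control and 6.04, 6.04, 5.87 and 5.89 in siTAZ cells and fell by 2.39 (SE 0.115, adjusted p = 1.44e-10). PCNA, the sliding clamp of DNA polymerase, read 12.55, 12.21, 12.58 and 12.66 against 11.84, 11.87, 11.82 and 11.85 and fell by 0.66. UHRF1, which recruits the maintenance DNA methyltransferase, fell by 0.78, and POLE2, a polymerase subunit, by 0.87. In the mitosis list CENPA, the centromeric histone, fell by 0.90, the cyclin-dependent kinase CDK1 by 0.62, and the kinesin KIF11 and the checkpoint gene MAD2L1 by 0.51 each; MAD2L1 was not called with the ACTB covariate (-0.33). In sibcat cells, which share the controls, 30 of the 31 replication genes were lower (17.3% of all genes), with a median of -0.64, and siTAZ cells lay above sibcat cells for 22 members (18.9% of all genes).

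The upstream windows of UHRF1 and PCNA are shown because both fell and carry an E2F site in the letters TTTCCCGC or TTTGGCGC (GCGGGAAA or GCGCCAAA on the other strand), in capitals below. They are 250 bases from RefSeq (GRCh38.p14), for UHRF1 chr19:4909251-4909500 (plus strand) and for PCNA chr20:5126623-5126872 (minus strand):
UHRF1: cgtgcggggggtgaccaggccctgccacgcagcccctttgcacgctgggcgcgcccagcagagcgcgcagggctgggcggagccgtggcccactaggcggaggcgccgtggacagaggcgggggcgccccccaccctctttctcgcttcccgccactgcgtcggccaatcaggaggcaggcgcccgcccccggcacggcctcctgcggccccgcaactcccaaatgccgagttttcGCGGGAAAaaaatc
PCNA: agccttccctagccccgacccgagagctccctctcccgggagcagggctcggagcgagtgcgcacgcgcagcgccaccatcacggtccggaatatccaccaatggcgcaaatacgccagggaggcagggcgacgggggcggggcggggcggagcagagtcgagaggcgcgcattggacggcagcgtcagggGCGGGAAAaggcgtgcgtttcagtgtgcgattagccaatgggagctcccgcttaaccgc
Each held 1 match. Of all these promoters 1.96%, and of the analysed genes 2.54%, held one, and 13 of the 27 replication genes with a window did. The match did not separate the members that fell from the rest, at 7 of 14 among those that fell and 5 of 10 among those not called. Of all genes lower in siTAZ cells 4.25% held a match and of those higher 2.48%.

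Genes of growth arrest moved both ways. Among CDK inhibitors and p53 targets, 9 of 18 rose (50.0%, beside 17.0% of all genes) and 6 fell (33.3%, beside 13.1%; median 0.23), 3 of them with the ACTB covariate. CDKN1B (p27) rose by 0.59 and PHLDA3 by 0.77, while ZMAT3, a p53-induced RNA-binding protein, fell by 0.96, and its 4 other probe sets fell as well. Ribosome biogenesis and MYC programme genes fell in 7 of 19 cases (36.8%) and rose in 1 (median -0.06); the largest fall was ODC1, of polyamine synthesis, by 0.75. Of 15 cholesterol biosynthesis genes 6 fell (40%) and 1 rose; SQLE, squalene epoxidase, fell by 1.07, INSIG1 by 0.55 and IDI1 by 0.46. Of 22 glycolysis and hypoxia response genes 11 rose (50.0%) and 4 fell (18.2%), with ALDOC higher by 0.99, PFKFB3 by 0.85 and ENO2 by 0.80.

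**Figure D5:**
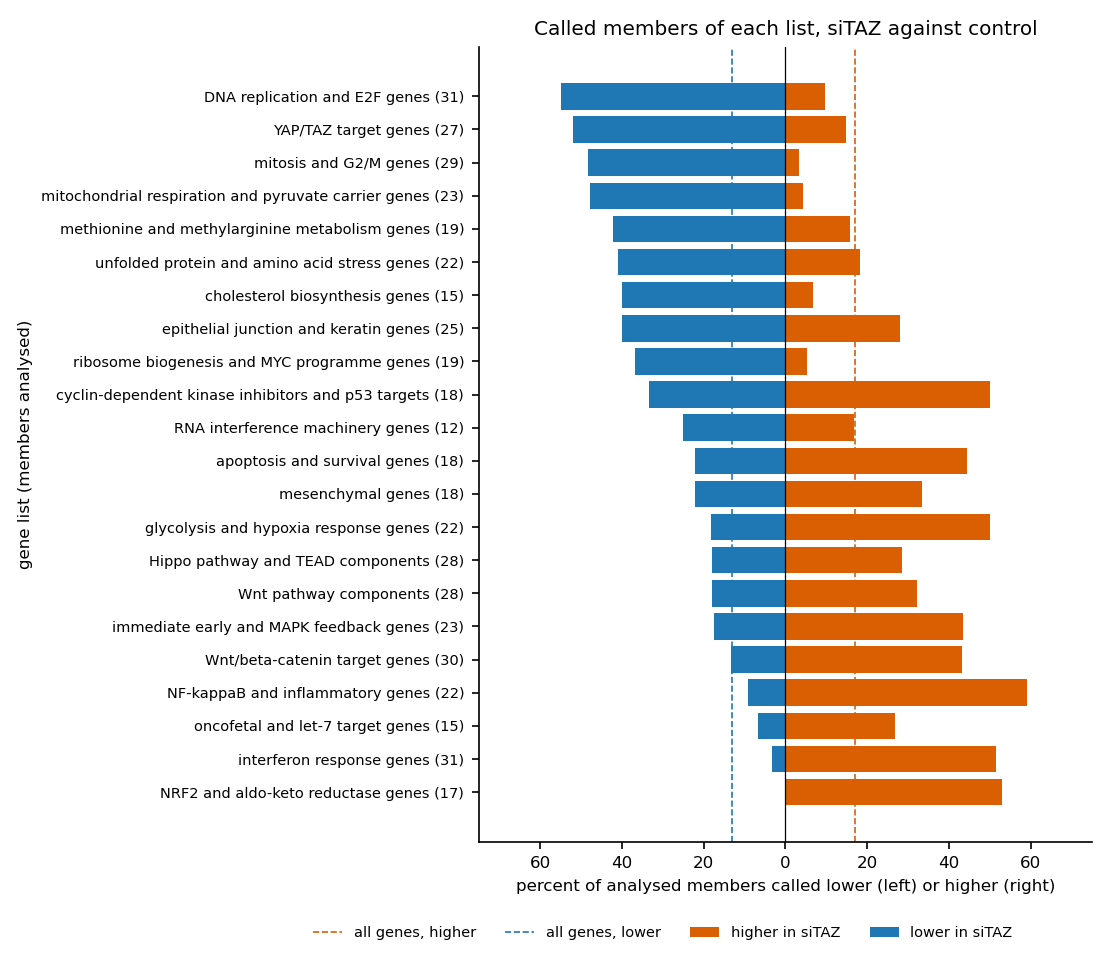
Percent of the analysed members of each gene list that were called lower (left bars) or higher (right bars) in siTAZ than in control cells; dashed lines mark all genes, 13.1% lower and 17.0% higher. DNA replication genes (54.8% lower) and YAP/TAZ targets (51.9% lower) stand at the top, and NRF2 and aldo-keto reductase genes, with 0 lower and 52.9% higher, at the bottom.

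The largest increases started from low levels. VAT1L read 5.53, 5.53, 5.33 and 5.69 in control and 9.02, 8.55, 8.75 and 8.87 in siTAZ cells and rose by 3.28 (SE 0.119, adjusted p = 5.07e-12). GNG2, a G protein gamma subunit, rose by 2.87 from 5.45 ± 0.162. In sibcat cells VAT1L and GNG2 differed from control by -0.78 and -0.16, and in APC cells by -0.99 and 0.45. CCR7, a chemokine receptor of lymphoid homing, rose by 2.03 from 6.29 ± 0.175 to 8.32 ± 0.0881, and the chemokine CXCL6 by 1.98. CCR7 and CXCL6 differed from control by -0.17 and 0.16 in sibcat cells and by -1.79 and 2.42 in APC cells. PLPPR4, KANK4, PWWP3B and the mucin MUC16 rose by 2.77, 2.29, 2.13 and 1.93 from control means of 4.47 to 4.91, where the signal may be background and the size of the rise is uncertain.

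Inflammatory and interferon genes rose more often than they fell, beside 17.0% higher and 13.1% lower over all genes. Of the NF-kappaB and inflammatory list, 13 of 22 members rose (59.1%) and 2 fell (median 0.22). IL24, a cytokine of the IL-10 family, read 5.98, 5.60, 5.72 and 5.63 in control and 8.22, 8.0, 7.78 and 8.04 in siTAZ cells and rose by 2.28. CCL2, SOD2 and CXCL8 rose by 1.31, 1.02 and 0.95. Of 31 interferon response genes 16 rose (51.6%) and 1 fell (median 0.22), among them SAMD9 by 2.69 from 3.80 ± 0.0852, ISG20 by 1.05 and MX2 by 0.85. SAMD9 was also above control in sibcat cells, by 1.93, and in APC cells, by 3.18. The interferon list's median difference from the same controls was 0.51 in sibcat and 0.54 in APC cells, and siTAZ cells were lower than sibcat cells for 19 members and higher for 6 (17.8% and 18.9% of all genes).

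Of 17 NRF2 and aldo-keto reductase genes 9 rose (52.9%, beside 17.0% of all genes) and 0 fell. Without probe sets that can cross-hybridise 5 rose and 1 fell. AKR1C3 rose by 2.29 from 3.58 ± 0.114 and HMOX1, heme oxygenase, by 1.05. AKR1C3 was also above control in sibcat cells, by 2.27, and in APC cells, by 0.48. The AKR1C genes are close paralogues; AKR1C1 was higher by 0.64, but differed by -0.04 on the probe set that cannot cross-hybridise. In the MAPK feedback list 10 of 23 members rose (43.5%) and 4 fell (17.4%). DUSP5, the ERK phosphatase, read 9.09, 9.11, 9.13 and 9.13 against 10.50, 10.40, 10.38 and 10.42 and rose by 1.31. Of 18 apoptosis genes 8 rose (44.4%) and 4 fell (22.2%), and 5 rose with all probe sets averaged; TNFSF10 (TRAIL) rose by 1.29, BMF by 0.85 and BCL2L11 by 0.71, and PMAIP1 (NOXA) fell by 0.76. Of 12 RNA interference machinery genes 2 rose (16.7%, beside 17.0% of all genes) and 3 fell (25.0%, beside 13.1%). With all probe sets averaged 3 rose and 2 fell. DICER1 rose by 1.02 and AGO2 by 0.48, while AGO1 fell by 0.42 and TNRC6B by 0.35; DICER1 was above control by 1.21 in sibcat cells.

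Epithelial and mesenchymal genes moved both ways. In the list of epithelial junctions and keratins, 7 of 25 members rose (28.0%, beside 17.0% of all genes) and 10 fell (40%, beside 13.1%; median -0.09). CDH1, E-cadherin, read 9.82, 9.67, 10.07 and 9.95 in control and 8.61, 8.75, 8.82 and 8.81 in siTAZ cells and fell by 1.13 (SE 0.0762, adjusted p = 7.98e-09), and TJP1 (ZO-1) fell by 0.76. EHF, an epithelial ETS factor, rose by 1.53 and CLDN1, claudin-1, by 0.90. Of 18 mesenchymal genes 6 rose (33.3%) and 4 fell (22.2%; median 0.07), and 2 rose and 3 fell with all probe sets averaged. The matrix protein SPARC rose by 1.26 and the integrin gene ITGA5 by 0.88, while MSN, moesin, fell by 0.97.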

How the data were processed

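The data are 16 Affymetrix U133 Plus 2.0 arrays of SW480 RNA, in 4 groups of 4 taken from the labels. The values are log2 levels per probe set that the authors made with RMA, per the submitters' processing notes (version not given), and deposited in 1 table; RMA's usual steps are background correction, quantile normalisation and summarisation over probes, and the normalisation hides any change in total RNA. Signals have no count behind them, so the number of arrays limits the precision.

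Of 54675 probe sets, 41097 were paired with 1 gene, 1801 with several and 11777 with none, and 41043 were named through the gene ID. The brightest probe set (highest mean) stood for each of 19775 genes, and no dimness filter was applied. A linear model over the 16 arrays was fitted with limma 3.58.1 under R 4.3.3, with eBayes and no block, in 5 comparisons, called at a Benjamini-Hochberg adjusted p under 0.05. The calls were tested on simulated data with independent noise. Those data lack the shared deviations of A and B against C and D, so they cannot test the calls under them. Single values were compared by exact two-sided permutation tests (smallest p 0.0286).

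Members, the 26 gene lists (572 genes, 525 analysed) and alternatives were chosen with earlier results of these data known. Named genes were WWTR1, YAP1, CTNNB1, APC, CCN2 and HMGA2; the 12 largest increases and 12 largest decreases, and the same among genes changed in siTAZ cells only, among called genes whose arrays do not overlap and whose brighter group reaches 5.10; all called YAP/TAZ and Wnt target genes; and up to 4 called members of every other list. Alternatives were a replicate block, other probe set rules, filters, scalings and covariates, and leaving out arrays. Probe sets that can cross-hybridise were those with names ending in _x_at, _s_at or _a_at. They were left out only where the gene had another probe set. Upstream windows are 250 bases from RefSeq (GRCh38.p14); 15384 of the 19775 genes had one. Protein sequences were not used here.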

Additional observations from a re-analysis of the deposited data

Results flagged for a closer look

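Of 316 groups of 4 arrays tested for the named genes, 13 had 1 array that stood apart from the other 3, and chance marks about 1 in 20 groups. In control cells, array B stood apart for E2F8 (7.92, the others 8.44 to 8.53), PLPPR4 (4.27, the others 4.53 to 4.55), WNT5A (11.40, the others 11.69 to 11.71) and TSR1 (10.11, the others 10.07). Control array A stood apart for MYOF (10.64, the others 10.45 to 10.47) and control array D for LATS2 (9.88, the others 9.71 to 9.73). In siTAZ cells, array A stood apart for YAP1 (11.35, the others 11.12 to 11.15) and NIP7 (8.64, the others 8.65). Array C did so for PLPPR4 (7.38, the others 7.19 to 7.20), AKR1C1 (7.45, the others 7.30 to 7.31) and SOX4 (11.77, the others 11.79), and array D for AGO1 (8.09, the others 7.89 to 7.92) and FBXW7 (8.35, the others 8.19 to 8.21). For NIP7, SOX4 and TSR1 the gap came from 3 arrays that were almost equal.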

How the results depend on the processing

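Of 158 named genes 120 kept their direction and call in all 19 alternatives, 33 lost the call in at least 1 and 6 changed direction in at least 1. Without probe sets that can cross-hybridise, AKR1C1 differed by -0.04, MYOF by 0.05 and TSR1 by 0.17; averaged over all probe sets, APC differed by 0.00, ASCL2 by -0.01 and TEAD1 by -0.16. On the A and B arrays alone, genes higher in siTAZ than control numbered 2074 and genes lower in siTAZ than control 1492, from fewer samples. Averaging all probe sets of a gene gave 108 genes at least 2-fold higher in siTAZ than control, 1 YAP/TAZ target gene called higher, a median difference of YAP/TAZ target genes of -0.16 and of Wnt/beta-catenin target genes of 0.07. The YAP/TAZ median was -0.16 without probe sets that can cross-hybridise and -0.26 on the A and B arrays alone, and 2 YAP/TAZ target genes were called higher on the C and D arrays alone; the cause was not tested. Leaving out 1 array in turn, WWTR1 in siTAZ against control ranged from -3.42 to -3.33, genes higher in siTAZ than control from 3057 to 3332, genes lower from 2338 to 2724, genes at least 2-fold higher in siTAZ than control from 152 to 178, genes at least 2-fold lower in siTAZ than control from 155 to 191, genes higher in siTAZ only from 325 to 395 and genes lower in siTAZ only from 280 to 335. YAP/TAZ target genes called higher ranged from 3 to 5 and called lower stayed at 14, with a median of -0.37 to -0.30; Wnt/beta-catenin target genes called higher ranged from 11 to 13 and called lower stayed at 4, with a median of 0.08 to 0.15, the latter without control array A. The letters did not establish pairs, since same-letter arrays of siTAZ and control correlated at 0.09 to 0.20; with the letter as a replicate block, 3831 genes were higher and 2977 lower, and genes changed in siTAZ only numbered 353 higher, 284 of them shared with the fit without it, and 268 lower, 224 of them shared. Of the 355 higher and 302 lower genes of that class, 166 and 156 stayed in it on the A and B arrays alone. On the C and D arrays alone 217 and 211 stayed, both from fewer samples. With all probe sets averaged 209 and 202 stayed, and with the ACTB covariate 247 and 199. Leaving out 1 array in turn, 295 to 321 and 257 to 271 stayed. Centring arrays on their medians moved the median of all genes by -0.025. The 2-fold counts and the counts of target genes were added to the alternatives after seeing the data. Changes in genes below the level of 5.10 are limited by background.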
